A study of Homo sapiens with 2 samples.

Results

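Proteasome genes were taken as all genes whose symbol consists of PSM, a letter from A to G and a number, which gave 45 of the 18417 genes measured on the arrays. RefSeq lists 48 human genes of that form, and PSMC5, PSMD7 and PSMD13 were not analysed here. The series compared HepG2 cells, an established human hepatoma line, on 2 Affymetrix arrays. 1 array held RNA of control cells, for which the labels name no dose or exposure time. The other held RNA of cells given amorphous silica nanoparticles (SiO2-NP) at 100 mg/L for 24 h. The labels name no replicate cultures, so each value below is 1 array, no replicate error or test exists, and higher and lower describe these 2 arrays. The markers matched the labelled cell type on both arrays: all 8 measured hepatocyte and hepatoma markers lay above the level filter explained below, with ALB at 13.50 and 13.41 and AFP at 13.06 and 13.04 (log2 intensity, control first).

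The proteasome is the protease that degrades ubiquitin-tagged proteins in the cytosol and nucleus. Its barrel-shaped core stacks outer rings of alpha subunits, which gate the entry pore, on inner rings of beta subunits, of which some cut the substrate. A regulatory particle caps the core: its base holds a ring of ATPases that unfold substrates, and its lid removes the ubiquitin chain. Other activators can dock in its place, and dedicated chaperones help to assemble both parts. The transcription factor NRF1 (gene NFE2L1) is known to raise the subunit genes together, through antioxidant response elements in their promoters, when proteasome activity falls. Hepatocytes mainly make the constitutive form, and interferon induces the catalytic subunits of the immunoproteasome, which leukocytes make without it.

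The promoters of 5 members are shown, chosen among the members above the level filter. PSMA3, PSMC6 and PSME2 had the 3 largest negative differences there. PSME1, the partner that forms a ring with PSME2, differed little, and PSMC4 had the largest positive difference of the members above the filter. Each run is the 250 bases before the gene's start in RefSeq, build GRCh38.p14, 5′ to 3′ on the gene's strand. Capitals mark matches to either of 2 motifs on either strand: TGACNNNGC, the core of the antioxidant response element, and CCAAT, the CCAAT box. The motifs' letters did not overlap in the sequences shown. The regions are chr14:58244593-58244842 (plus strand), chr14:52706950-52707199 (plus), chr14:24146611-24146860 (minus), chr14:24135944-24136193 (plus) and chr19:39970915-39971164 (plus).
PSMA3: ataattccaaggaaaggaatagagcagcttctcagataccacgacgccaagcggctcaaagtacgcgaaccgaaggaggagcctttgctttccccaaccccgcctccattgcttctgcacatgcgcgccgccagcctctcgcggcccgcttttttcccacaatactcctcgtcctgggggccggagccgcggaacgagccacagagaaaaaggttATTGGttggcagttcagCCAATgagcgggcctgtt
PSMC6: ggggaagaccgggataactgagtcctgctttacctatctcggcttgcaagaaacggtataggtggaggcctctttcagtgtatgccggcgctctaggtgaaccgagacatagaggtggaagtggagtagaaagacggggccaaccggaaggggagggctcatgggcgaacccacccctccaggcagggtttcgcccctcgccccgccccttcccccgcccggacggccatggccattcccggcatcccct
PSME2: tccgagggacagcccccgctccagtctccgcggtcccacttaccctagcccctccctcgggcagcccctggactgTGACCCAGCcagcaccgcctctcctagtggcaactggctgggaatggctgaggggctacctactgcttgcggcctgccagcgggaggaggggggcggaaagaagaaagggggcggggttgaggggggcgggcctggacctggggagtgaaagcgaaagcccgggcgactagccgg
PSME1: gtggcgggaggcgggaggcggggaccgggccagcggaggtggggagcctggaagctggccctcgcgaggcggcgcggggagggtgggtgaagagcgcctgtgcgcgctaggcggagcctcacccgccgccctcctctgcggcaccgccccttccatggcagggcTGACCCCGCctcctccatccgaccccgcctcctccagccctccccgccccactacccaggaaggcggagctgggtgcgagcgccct
PSMC4: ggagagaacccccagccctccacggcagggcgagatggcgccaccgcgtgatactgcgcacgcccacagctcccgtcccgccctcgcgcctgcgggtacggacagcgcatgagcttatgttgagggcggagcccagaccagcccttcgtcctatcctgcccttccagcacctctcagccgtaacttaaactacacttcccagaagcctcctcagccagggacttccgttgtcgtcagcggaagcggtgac

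PSMA3 held a CCAAT box on each strand, beginning 35 and 18 bases before the start. PSME2 and PSME1 each held 1 antioxidant response element core, TGACCCAGC and TGACCCCGC, beginning 175 and 86 bases before their starts. Neither motif was found in the 250 bases shown for PSMC6 or PSMC4. PSMC4 had a match to the element core in the 50 bases after its start, which are not shown. Over the full windows of 300 bases (250 before and 50 after a start), 39 of the 45 members had an entry, with 47 windows. The element core occurred in 14 of these 47 windows (29.8%), against 13.3% of all 35116 windows and 13.8% of those of protein-coding genes. CCAAT boxes occurred in 18 of the 47 (38.3%), against 34.6% of all windows. Members with the element core had a median log2 difference of -0.07 over 14 genes above the level filter, and members with a window but no match had -0.06 over 20. For the CCAAT box these medians were -0.08 over 17 genes and -0.04 over 17. A match is a run of letters and not a shown binding site.

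Proteasome transcripts differed little between the 2 arrays, and the members with the largest differences were lower after SiO2-NP. Of all genes above the level filter, too, more were at least 1.2-fold lower (7.53%) than higher (2.99%). Of the 45 members, 40 reached the level filter, a mean log2 intensity over both arrays of at least 7.26, the median over all genes. The 5 under it were PSMA8, PSMB8, PSMB10, PSMB11 and PSMG4. The filter is a level and not a detection call, and levels of different genes are not compared, because their probes differ. Over the 40, the median log2 difference (SiO2-NP minus control) was -0.06, with a range of -0.50 to 0.10, against a median of -0.03 over all 9209 genes above the filter. In 28 of the 40 (70.0%) the value was below the control, against 59.8% of all genes above the filter. This split depended on scaling: 24 of 40 were below once differences were centred on the running median of genes of like level (background 49.9%) and 22 of 40 after quantile normalization (background 46.4%).

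At least 1.2-fold lower were 3 of the 40 members (PSMA3, PSMC6 and PSME2), against a background of 7.53% of all genes above the filter. No member above the filter was at least 1.2-fold higher, where the background was 2.99%. None reached 1.5-fold in either direction, where the background was 0.391%. The 3 lower members are 7.50% of the 40, close to the share of all genes in the deposited values. After running-median centring or quantile normalization PSMA3 alone was 1.2-fold lower, 2.5% of the 40 against 5.68% and 5.15% of all genes. After centring on the median 5 members were, with PSMA5 and PSMD12 added, 12.5% against 8.36%. PSME2, at -0.264, lay just past the threshold, a size of 0.263, and PSMA5, at -0.259, just inside it. The SD of the differences across genes was 0.12 over the 40 members and 0.16 over all genes above the filter. This spread is between genes and not between cultures.

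**Figure D1:**
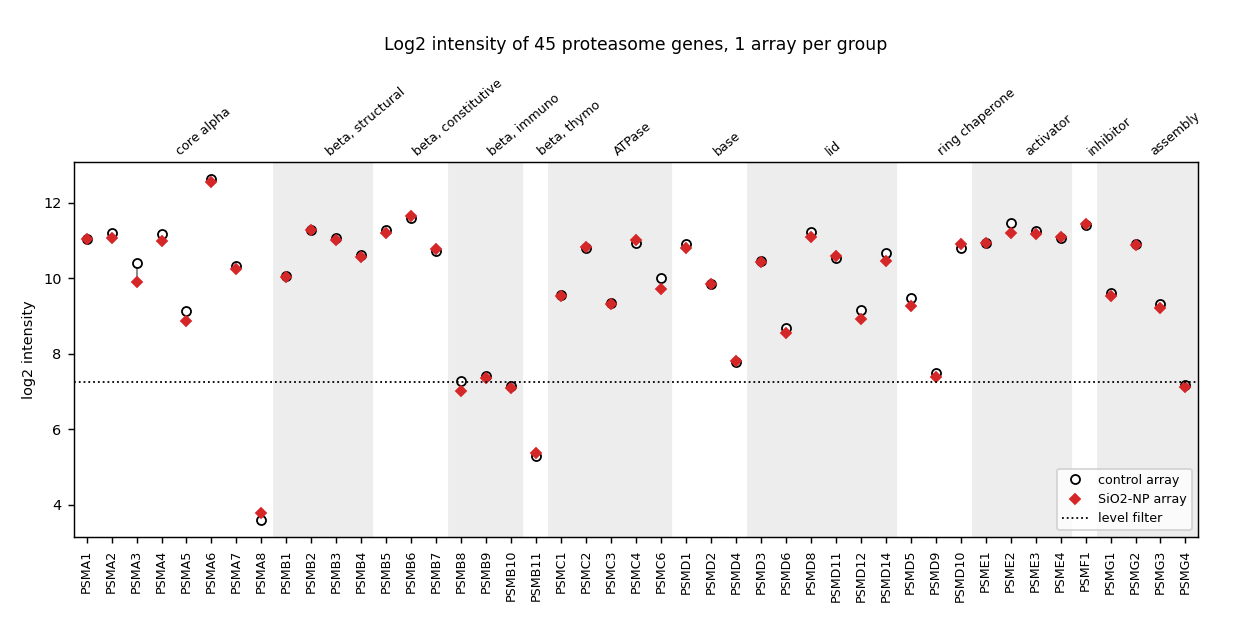
Log2 intensity (vertical axis) of the 45 proteasome genes (horizontal axis, grouped by subunit class) in the control array (open circles) and the SiO2-NP array (diamonds), joined by a line, with the level filter dotted at 7.26. The symbols of most genes overlap, and the widest gap is that of PSMA3 (10.39 and 9.89); only the 2 values of the same gene can be compared.

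The median of the alpha subunits was -0.13, from 7 genes that reached the filter (-0.10 after running-median centring and -0.09 after quantile normalization). All 7 were below the control in the deposited values, against 59.8% of all genes above the filter. PSMA1 moved above the control after running-median centring (0.02) and quantile normalization (0.03). Under these 2 scalings 6 of the 7 were below, against 49.9% and 46.4% of all genes. PSMA3, the alpha7 subunit at the entry ring, had the largest difference of all members: its log2 intensity was 10.39 in the control and 9.89 after SiO2-NP, a difference of -0.50 or 1.41-fold. Of the 9209 genes above the filter, 65 had a lower difference (0.706%). PSMA3 was the only member outside the central 95% of these genes, which ran from -0.37 to 0.28. By construction the rest of the genes lie outside this range, so 1 of 40 members there does not exceed the share of all genes.

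PSMA5 had 9.14 and 8.88 (-0.26), PSMA4 had 11.17 and 10.99 (-0.18) and PSMA2 had 11.19 and 11.06 (-0.13). The differences of PSMA7 and PSMA6 were smaller, at -0.10 and -0.08. PSMA1 was level, at 11.04 in the control and 11.03 after SiO2-NP (-0.01). These 7 subunits are present in equal number in the core, and their transcripts' differences ran from -0.50 to -0.01. PSMA8, an alternative alpha subunit known from testis, lay under the filter on both arrays, at 3.61 and 3.78.

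The median of the beta subunits was -0.03, from 8 genes that reached the filter. Of these, 5 were below the control (62.5%, close to the 59.8% of all genes above the filter). The constitutive catalytic subunits, which carry the active sites in most tissues, had differences of 0.05 for PSMB7 (10.71 in the control and 10.76 after SiO2-NP), 0.03 for PSMB6 (11.61 and 11.64) and -0.09 for PSMB5 (11.29 and 11.20). Of these, PSMB5 encodes the chymotrypsin-like site, the main target of the drug bortezomib. The 4 structural beta subunits had differences between -0.06 (PSMB3) and 0.01 (PSMB2), with PSMB4 at -0.05 and PSMB1 at -0.02. Their median was -0.03 and changed sign to 0.0011 after running-median centring and to 0.01 after quantile normalization.

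The immunoproteasome subunits replace the constitutive catalytic subunits after interferon exposure and favour peptides for MHC class I. PSMB8 had 7.28 in the control and 7.01 after SiO2-NP, a difference of -0.27 or 1.21-fold, and its mean lay under the level filter. PSMB9 had 7.41 and 7.36 (-0.04), and PSMB10 had 7.15 and 7.11 (-0.04). PSMB8 and PSMB9 were each read by 3 probes with identical values, which count as 1 measurement. Leukocytes carry these subunits constitutively. Of 7 measured leukocyte markers, 2 reached the filter, LYZ at 13.23 and 13.27 and CD68 at 9.61 and 9.49. PTPRC, the pan-leukocyte marker, was at 3.65 and 3.71, and CD3E, CD14, ITGAM and CD2 also lay under the filter. Whether any leukocyte RNA was present was not tested. PSMB11, the thymus-specific subunit, was at 5.30 and 5.36, under the filter.

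**Figure D2:**
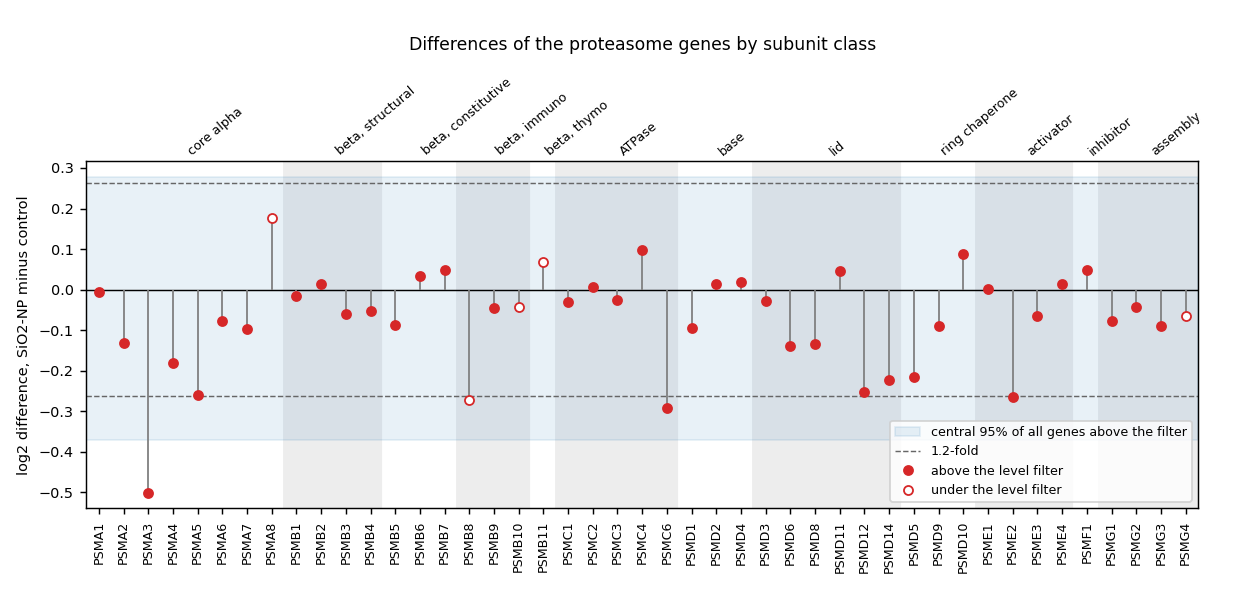
Log2 difference, SiO2-NP minus control (vertical axis), of each of the 45 genes (horizontal axis, grouped by subunit class), with dashed lines at 1.2-fold and a band for the central 95% of all 9209 genes above the level filter. PSMA3 (-0.50) lies below the band, and PSMC6, PSME2 and PSMB8 lie past the lower 1.2-fold line; open circles mark genes under the level filter.

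Among the ATPases, 1 member stood away from the rest. PSMC6, a subunit of the hexameric unfolding ring, had 10.003 in the control and 9.712 after SiO2-NP, a difference of -0.29 or 1.22-fold. It was read by 2 probes, with differences of -0.25 and -0.33, of which the brighter alone (-0.25) would not reach 1.2-fold. The annotation lists the same transcripts for both probes, so they may share a target or read a copy of the gene. PSMC1, also read by 2 probes, had differences of -0.04 and -0.02 in them. PSMC4 had the largest positive difference of the members above the filter, with 10.92 and 11.02 (0.10). PSMC2 (0.01) and PSMC3 (-0.03) were nearly level. The ATPase median of -0.03 over 5 genes became 0.02 after running-median centring and after quantile normalization.

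The base subunits outside the ATPase ring differed little. PSMD1 and PSMD2, its scaffolds, differed by -0.09 and 0.02, and the ubiquitin receptor PSMD4 by 0.02 (7.79 in the control and 7.81 after SiO2-NP).

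Lid subunits had a median of -0.14 over 6 measured genes, 5 of them below the control (83.3%, against 59.8% of all genes). PSMD12 had 9.16 in the control and 8.91 after SiO2-NP (-0.25). PSMD14, the metalloprotease that cuts ubiquitin chains off the substrate, had 10.68 and 10.46 (-0.22). PSMD6 (-0.14) and PSMD8 (-0.13), scaffold subunits of the lid, followed. PSMD3 was close to level at -0.03, and PSMD11 was higher by 0.05 (10.54 and 10.58). PSMD11 is the lid subunit whose raised expression is known to increase proteasome assembly in stem cells. The lid median was -0.10 after running-median centring and -0.09 after quantile normalization. After the latter 4 of 6 were below, against 46.4% of all genes, since PSMD3 then lay at 0.01.

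The activators divided within a single complex. PSME1 and PSME2 encode the alpha and beta subunits of the PA28 ring, which is induced by interferon gamma and docks on the core. PSME1 was level, at 10.94 on both arrays (0.00), and PSME2 had 11.45 in the control and 11.19 after SiO2-NP, a difference of -0.26 or 1.201-fold. After running-median centring and quantile normalization PSME2 was at -0.24 and -0.22, short of 1.2-fold, and PSME1 at 0.03 and 0.04. Both genes lie on chromosome 14, with starts 10.4 kb apart on opposite strands. PSME3, the nuclear PA28 gamma, differed by -0.07, and PSME4, the PA200 activator, by 0.01. The activator median of -0.03 became 0.01 after quantile normalization. PSMF1, an inhibitor of the core, differed by 0.05 (11.40 and 11.45).

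The chaperones of assembly had small differences. PSMG1 and PSMG2, which form a pair that templates the alpha ring, differed by -0.08 and -0.04, PSMG3 by -0.09, and PSMG4, under the filter, by -0.07 (7.18 and 7.12). PSMG2 reached 0.00 after quantile normalization, which put it above the control by 0.00061. Of the chaperones of the ATPase ring, PSMD5 had 9.47 in the control and 9.26 after SiO2-NP (-0.22), PSMD9 differed by -0.09, and PSMD10, the oncoprotein gankyrin of liver cancer, was higher by 0.09 (10.81 and 10.90).

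More members lie on chromosome 14 than on any other: 8 of the 45 (PSMA3, PSMA6, PSMB5, PSMB11, PSMC1, PSMC6, PSME1 and PSME2), which include the 3 members above the filter that were at least 1.2-fold lower in the deposited values. The 7 of these above the filter had a median of -0.09, with 6 below the control. On chromosome 14 as a whole, 293 genes reached the filter, with a median of -0.05, 61.4% below and 9.56% at least 1.2-fold lower. Of the members that were 1.2-fold lower under other scalings, PSMA5 and PSMD12, added by centring on the median, lie on chromosomes 1 and 17, and PSMA3 alone was left after running-median centring or quantile normalization. This grouping was noticed after the values were seen and was given no test.

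Genes of proteasome subunits and partners whose symbols fall outside the naming rule numbered 14, and all 14 lay above the filter. Of these, 11 (78.6%, against 59.8% of all genes) were below the control, and 2 (14.3%, against 7.53%) were at least 1.2-fold lower, UCHL5 and PSME3IP1. After running-median centring or quantile normalization UCHL5 alone of the 14 was 1.2-fold lower, where the background was 5.68% and 5.15% of all genes. The median was -0.13 (-0.10 after running-median centring and -0.08 after quantile normalization). UCHL5, a deubiquitinase of the regulatory particle, had 9.03 in the control and 8.66 after SiO2-NP (-0.37). PSME3IP1, a partner of PSME3, had 8.84 and 8.57 (-0.27). USP14, the other deubiquitinase that binds the base, differed by -0.20, the thioredoxin-like partner TXNL1 by -0.17, the small lid subunit SEM1 by -0.17 and the core maturation factor POMP by -0.09. ADRM1, the ubiquitin receptor that recruits UCHL5, was higher by 0.15 (10.52 and 10.67).

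Of 4 regulators of the subunit genes above the filter, 3 were below the control (75%, against 59.8% of all genes). After running-median centring or quantile normalization 2 of the 4 were below, against 49.9% and 46.4% of all genes. NFE2L1 had 9.87 in the control and 9.86 after SiO2-NP (-0.02). Its relative NFE2L2 differed by -0.14, NGLY1, which processes NRF1, by -0.12, and the partner MAFG by 0.16. These are transcript values, and NRF1 is regulated mainly as a protein. Of 10 genes that deliver ubiquitinated proteins, 5 were below the control (50%, against 59.8% of all genes above the filter). None was 1.2-fold apart, where the background was 7.53% lower and 2.99% higher. The median of these 10 genes was -0.02 and became 0.03 after running-median centring and after quantile normalization. Their largest differences were those of UBQLN4 (-0.25), NPLOC4 (0.13), FAF2 (-0.09) and NSFL1C (-0.08). The ubiquitin precursor UBB differed by 0.03 and the E1 enzymes UBA1 and UBA6 by 0.05 and -0.08.

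Among the MHC class I processing genes, which act on the peptides that the proteasome makes, 8 lay above the filter. Of these 8, 5 were below the control (62.5%, against 59.8% of all genes). After running-median centring or quantile normalization 4 of the 8 were below, against 49.9% and 46.4% of all genes. The median of these 8 genes, -0.04, became 0.01 after quantile normalization. ERAP2, a peptide-trimming enzyme, had 7.96 and 7.66 (-0.30). B2M, the class I light chain, differed by -0.21, the peptide-loading factor TAPBP by 0.18 and the chaperone CALR by -0.09.

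**Figure D3:**
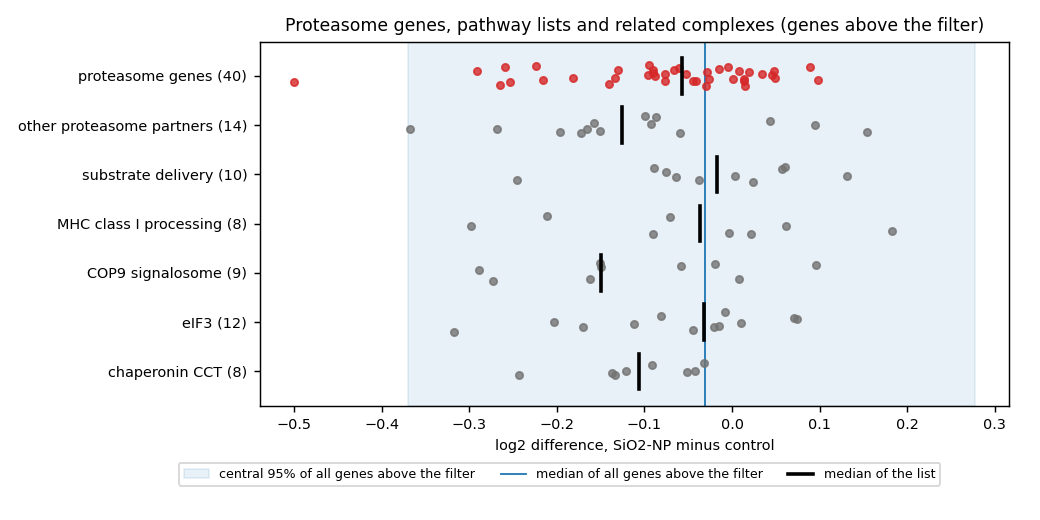
Log2 difference, SiO2-NP minus control (horizontal axis), of the genes above the level filter in the proteasome set, 3 pathway lists and 3 other complexes (rows, number of genes in brackets), with black bars for the medians, a line for the median of all genes and a band for their central 95%. The proteasome median (-0.06) lies between those of eIF3 (-0.03) and the chaperonin CCT (-0.11); points are shifted vertically at random for visibility.

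Values of 3 other large complexes are given beside those of the proteasome, with the same background of 59.8% below the control and 7.53% at least 1.2-fold lower. After running-median centring these background shares were 49.9% and 5.68%, and after quantile normalization 46.4% and 5.15%. The COP9 signalosome and the translation factor eIF3 are built from relatives of the lid subunits. For the signalosome's 9 genes above the filter the median was -0.15, with 7 below the control and 2 at least 1.2-fold lower, COPS4 (-0.29) and COPS8 (-0.27), followed by COPS2 (-0.16) and COPS3 (-0.15). After running-median centring or quantile normalization 6 of the 9 were below the control and 0 were at least 1.2-fold lower. For eIF3 the median was -0.03 over 12 genes, with 9 below and 1 past 1.2-fold, EIF3E (-0.32). After running-median centring or quantile normalization 6 of the 12 were below, and the median became 0.01 after the latter. EIF3B, EIF3F and EIF3M differed by -0.20, -0.17 and -0.11. In the chaperonin CCT, another ring of many subunits, 8 of 8 genes were lower than the control (7 after running-median centring and 6 after quantile normalization). The median was -0.11, with none past 1.2-fold. Its largest differences were those of CCT2 (-0.24), CCT4 (-0.14), TCP1 (-0.13) and CCT6A (-0.12). No difference between the proteasome and these complexes was tested.

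**Figure D4:**
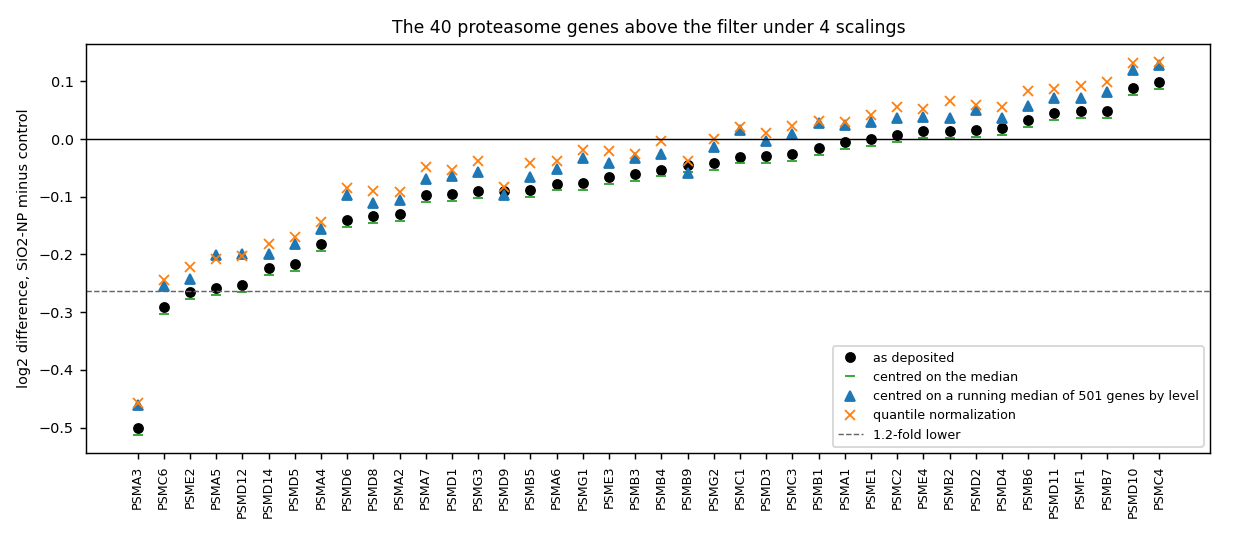
Log2 difference, SiO2-NP minus control (vertical axis), of the 40 proteasome genes above the level filter (horizontal axis, ordered by the deposited difference) under 4 scalings, with a dashed line at 1.2-fold lower. PSMA3 stays below the line under each of the 4 (-0.46 to -0.51), PSMC6 and PSME2 cross it, and genes near 0 change sign.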

How the data were processed

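The data were 2 arrays of 33297 probes, 1 per group. The deposited values are log2 intensity per probe, as read from their range of 2.08 to 14.4. Per the submitters' processing notes, RMA and MAS5 were used; which made these values, with what version, is not given in the sources used here. Such normalization can hide a change shared by most transcripts. Arrays have no read depth; their number limits precision. Probes with 1 gene symbol (19460) were averaged per gene; the 51 probes of members included 3 each for PSMB8 and PSMB9 and 2 each for PSMC1 and PSMC6.

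Differences were SiO2-NP minus control, with no test, counted at 1.2-fold (0.26 on the log2 scale) and 1.5-fold (0.58). Alternatives were 3 scalings (quantile normalization, and centring on each array's median or on the running median of the 501 genes nearest in level), 2 level filters, 2 probe rules, the list mean, and leaving out tissue-specific subunits. Log2 values needed no pseudocount. Every member is named; of each other list, up to 4 genes above the filter with the largest absolute difference, and NFE2L1, NFE2L2, POMP, ADRM1, SEM1, ALB and AFP. Cell type markers other than ALB and AFP were named after their values were seen. The members and lists were chosen with earlier results of these data known. Of the endothelial and fibroblast markers, 0 of 5 and 1 of 6 reached the filter. Steps were tested on simulated data. A planned comparison of protein sequences was not run. The software was pandas 2.3.3 and NumPy 2.4.6 under Python 3.11.15, with plots drawn in matplotlib 3.10.9.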

Additional observations from a re-analysis of the deposited data

How the results depend on the processing

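The members' median of -0.06 ran from -0.08 (mean in place of median) to -0.02 (quantile normalization) over 9 alternatives. The number below the control, an alternative count added after seeing the data, ran from 22 to 30 of 40. The 22 came after quantile normalization (55%, against 46.4% of all genes) and the 30 after centring on the median (75%, against 63.1%). It was 31 of 45 without the level filter (68.9%, against 47.6% of all genes) and 25 of 36 with the filter at the 75th percentile (69.4%, against 62.7%). Without the filter, 9208 of the 18417 background genes lay under its level, against 5 of the 45 members. The shares given here without the filter therefore set members beside genes of unlike level. The number at least 1.2-fold lower was 3 (7.5%, against 7.53% of all genes). It was 1 after running-median centring (2.5%, against 5.68%), 1 after quantile normalization (2.5%, against 5.15%) and 5 after centring on the median (12.5%, against 8.36%). With the brightest probe it was 2 (5%, against 7.46%), and without the filter 4 (8.89%, against 6.47%). The counts of members 1.2-fold higher and 1.5-fold apart were 0 under all 7 alternatives run for them. In the deposited values 0.391% of all genes were 1.5-fold apart, and this share is not given for the alternatives. At so small a share, a count of 0 says little about the members. The share of all genes 1.2-fold higher ran from 2.17% (filter at the 75th percentile) to 8.26% (no filter) under these alternatives. The median of the base subunits outside the ATPase ring was 0.02, and -0.0398 with the filter at the 75th percentile, which leaves out PSMD4. The median of the core assembly chaperones was -0.08, and -0.0191 after quantile normalization; the cause was not tested. Of 225 member values under the alternatives, 10 moved by 0.05 or more, the largest by 0.09. Among members above the filter 8 changed sign, each from a difference of at most 0.04 in size. No paired analysis was possible because there was 1 array per group, which also left no replicate to omit.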
